A study of Mus musculus with 89 samples.

Results

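The p53 pathway was followed here in whole lung tissue of mice exposed to copper oxide (CuO) nanomaterials, through 10 genes: Trp53, which encodes p53, and Cdkn1a, Mdm2, Ccng1, Bax, Phlda3, Gdf15, Eda2r, Trp53inp1 and Sesn2. Members were taken by name, and 16 of the 56605 non-control probes of the array carried a transcript accession of one of them. They are 10 of the 22911 genes the array measured, 22851 of which had no missing value and were tested. Female BALB/c mice aged 6 to 8 weeks were all sensitized to ovalbumin (OVA) with alum, and were then challenged through the airways with either PBS (the healthy arm) or OVA (the arm with allergic airway inflammation). During the challenge they received core CuO or CuO whose surface carried COOH, NH3 or PEG groups, at 2.5, 10 or 40 μg/mouse by oropharyngeal aspiration on 4 consecutive days, or no material, and lung tissue was taken 24 h after the last exposure. This gave 89 samples in 26 groups: 7 PBS controls, 8 OVA controls, 4 samples each of PBS CuO NH3 10 and PBS CuO PEG 10, and 3 samples in each remaining group. Each sample was RNA pooled from 2 lungs, and materials were dosed by total mass, so equal doses of different materials do not hold equal copper.

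The p53 protein is a transcription factor that is stabilized by DNA damage and other stress and that switches on genes for cell cycle arrest, repair and cell death. Mdm2 marks p53 for degradation and is itself a p53 target, so the pair forms a feedback loop. Among the other targets, Cdkn1a encodes the CDK inhibitor p21, Ccng1 encodes cyclin G1, Bax opens the outer mitochondrial membrane in apoptosis, Phlda3 restrains AKT, Eda2r is a receptor of the TNF receptor family, Trp53inp1 is a p53-induced nuclear protein, Sesn2 is a stress sensor that restrains mTORC1, and Gdf15 is a secreted stress cytokine of the TGF-β superfamily. Gdf15 and Sesn2 are also induced through ATF4 in the integrated stress response.

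Samples were hybridised in pairs, 1 in the Cy3 and 1 in the Cy5 channel, on 46 arrays of 6 slides, 3 of which arrays held 1 sample. CuO and CuO COOH lay on slides 1 to 3 and CuO NH3 and CuO PEG on slides 4 to 6, with controls on both sets. All probes of 8 members were well above background in all 89 samples. The exceptions were 1 of the 2 Cdkn1a probes, well above background in 45 samples, and the 3 Eda2r probes, in 41, 9 and 4 samples. The lung markers Sftpc, Scgb1a1, Ager and Cdh5 were well above background in all 89 samples. Sample levels are given as log2 intensity after removal of dye, slide and position on the slide. Fold changes against controls come from a limma fit with dye and array as terms, and a gene counted as called where its adjusted p was under 0.05 and its log2 fold change exceeded 0.58 in size. Because this fit compares samples mainly within arrays, a fold change can differ from the difference of the sample levels. Leaving a sample out of this fit also removes what the other sample of its array contributes. Calls lost without either sample of an array are therefore the same result.

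Promoters of the members are shown because 6 of the genes were called together at the highest dose. RefSeq starts on GRCm38.p6 were held for 9 of the 10 members, as 11 promoters of 250 bases. The p53 response element is built from copies of a 10-base unit, the p53 decamer. A full match to it, searched on both strands, was found in 5 of the 11 promoters (Trp53, the upstream start of Cdkn1a, Mdm2, Ccng1 and Bax), against 7.13% of 32851 promoters of the same length. The ATF4-type motif TGATGNAA, also searched on both strands, was in none of the 11 and in 3.45% of all promoters. A match is a string of letters in this window and was not tested as a binding site. The members were chosen by name as p53 pathway genes, so their larger share of matches is not a finding of these data. Mdm2, with a match, was not called, and Phlda3 and Gdf15, without one, were. The promoters of 5 called genes follow, 5′ to 3′, with p53 decamers in capitals.
Cdkn1a, chr17:29090729-29090978, plus strand: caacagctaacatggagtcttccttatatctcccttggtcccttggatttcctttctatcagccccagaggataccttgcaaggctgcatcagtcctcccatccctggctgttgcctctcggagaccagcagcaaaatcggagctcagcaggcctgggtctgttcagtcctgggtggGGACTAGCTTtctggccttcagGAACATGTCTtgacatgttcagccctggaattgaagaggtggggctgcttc
Ccng1, chr11:40755287-40755536, minus strand: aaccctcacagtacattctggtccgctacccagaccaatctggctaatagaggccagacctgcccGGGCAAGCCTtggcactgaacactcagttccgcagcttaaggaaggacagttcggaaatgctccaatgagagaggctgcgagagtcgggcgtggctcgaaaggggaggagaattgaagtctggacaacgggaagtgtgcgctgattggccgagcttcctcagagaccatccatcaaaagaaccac
Bax, chr7:45466899-45467148, minus strand: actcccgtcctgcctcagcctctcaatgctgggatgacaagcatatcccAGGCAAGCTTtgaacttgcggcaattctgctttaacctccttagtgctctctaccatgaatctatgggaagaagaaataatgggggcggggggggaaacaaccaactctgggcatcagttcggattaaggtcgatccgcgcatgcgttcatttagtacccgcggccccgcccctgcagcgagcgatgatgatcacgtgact
Phlda3, chr1:135765835-135766084, plus strand: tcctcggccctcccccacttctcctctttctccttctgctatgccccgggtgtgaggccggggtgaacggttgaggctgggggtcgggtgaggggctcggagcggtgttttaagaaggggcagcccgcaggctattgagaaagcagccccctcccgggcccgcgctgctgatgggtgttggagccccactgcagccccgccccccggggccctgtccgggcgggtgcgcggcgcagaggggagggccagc
Gdf15, chr8:70632457-70632706, minus strand: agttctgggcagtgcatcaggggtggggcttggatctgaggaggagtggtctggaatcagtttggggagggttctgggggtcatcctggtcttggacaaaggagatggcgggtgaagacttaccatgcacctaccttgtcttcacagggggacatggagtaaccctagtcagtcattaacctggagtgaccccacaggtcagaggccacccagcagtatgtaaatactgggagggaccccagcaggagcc

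In PBS-challenged mice given 40 μg/mouse, CuO, CuO COOH and CuO NH3 raised Gdf15, Cdkn1a, Bax, Phlda3 and Ccng1, and CuO COOH and CuO NH3 also raised Trp53. CuO PEG moved no member past the threshold. The calls numbered 5 of 10 members for CuO, where 14.1% of all genes were called, 6 for CuO COOH (10.3%), 6 for CuO NH3 (13.2%) and 0 for CuO PEG (2.24%), with no member called lower. The median log2 fold change of the 10 members was 0.64 for CuO, 0.75 for CuO COOH, 0.64 for CuO NH3 and 0.17 for CuO PEG, while the median over all genes was 0.01 for CuO and closer to 0 for the others. The map of fold changes shows these calls by material and dose.

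**Figure D1:**
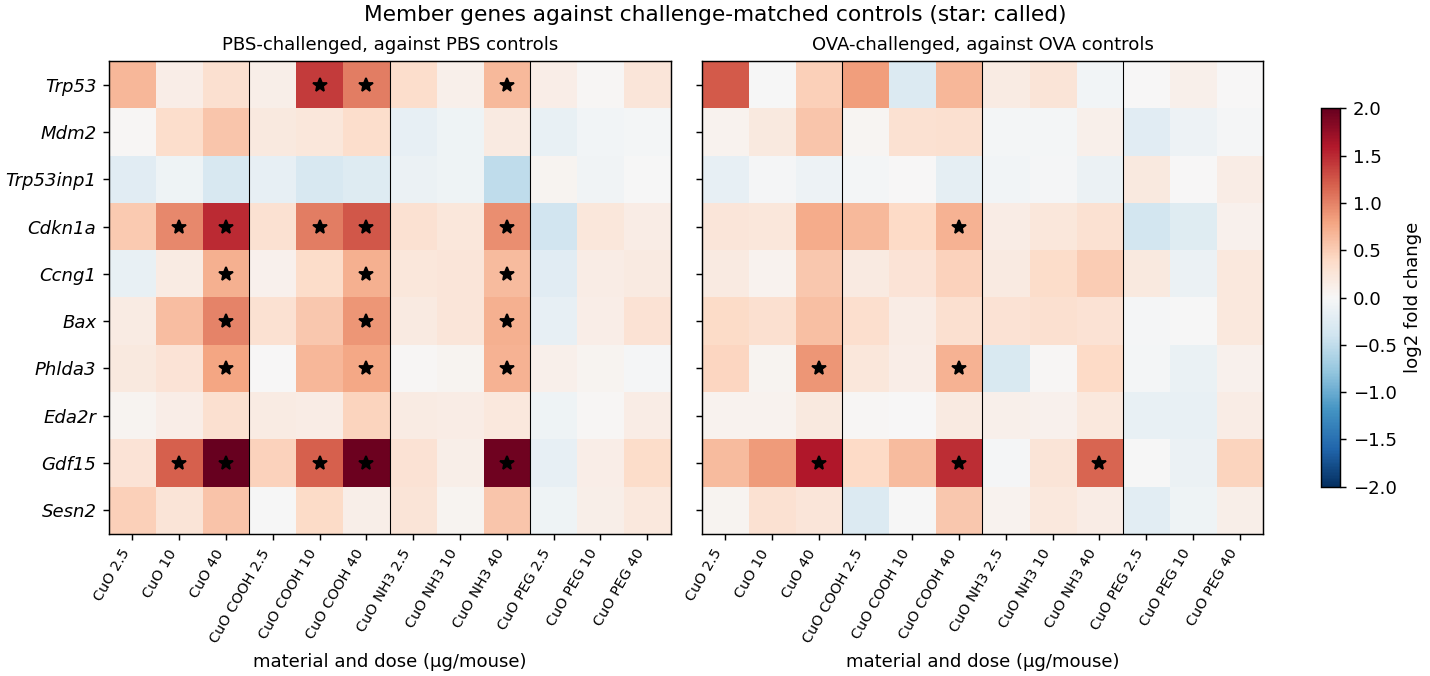
Log2 fold change of each member (rows) against controls of the same challenge, by material and dose in μg/mouse (columns), from the limma fit with dye and array as terms; stars mark called genes. The calls lie in the columns at 10 and 40 μg/mouse, 17 of them in the PBS arm at the highest dose. CuO PEG columns hold none.

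Gdf15 had the largest fitted log2 fold change of the 10 members for every material at 40 μg/mouse in both arms. At 10 μg/mouse other members exceeded it in some groups. Examples were Trp53 with CuO COOH in the PBS arm and with CuO PEG in the OVA arm. Ccng1 exceeded it at that dose with CuO NH3 in both arms and with CuO PEG in the PBS arm. Both Bax probes also exceeded it with CuO NH3 in both arms. The Gdf15 level in the 7 PBS controls ran from 7.33 through a median of 7.41 to 7.84. It was 8.55, 9.18 and 8.96 in the 3 PBS CuO 40 samples. It was 8.76, 8.96 and 9.04 with CuO COOH and 9.34, 9.47 and 9.11 with CuO NH3. All 9 samples lay above every control, while the 3 CuO PEG samples, at 7.78, 7.72 and 7.95, overlapped the controls. The fitted log2 fold changes were 1.99 ± 0.27 (SE) for CuO (adjusted p = 1.2e-05), 1.96 ± 0.26 for CuO COOH (adjusted p = 1.29e-05) and 1.94 ± 0.19 for CuO NH3 (adjusted p = 5.2e-08), close to 4-fold. For CuO PEG it was 0.36 ± 0.22 (adjusted p = 0.534). With slide and position in place of array the first 3 values were 1.41, 1.44 and 1.82. Without PBS CuO 40 replicate 2 the CuO value was 1.19 and no longer called (adjusted p = 0.175).

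Cdkn1a rose with the same 3 materials. Its control levels, averaged over both probes, ran from 7.54 through 7.76 to 7.93 in PBS-challenged mice. The 40 μg/mouse samples had 8.78, 9.01 and 8.72 with CuO, 8.49, 8.41 and 8.68 with CuO COOH, and 8.74, 8.85 and 8.67 with CuO NH3. These 9 samples lay above all 7 controls, and so did 2 of the 3 CuO PEG samples (8.06, 7.90 and 8.06). The log2 fold changes were 1.49 ± 0.21 for CuO (adjusted p = 1.81e-05), 1.24 ± 0.20 for CuO COOH (adjusted p = 0.000144) and 0.93 ± 0.15 for CuO NH3 (adjusted p = 4e-05), against 0.16 ± 0.17 for CuO PEG (adjusted p = 0.794). The gene value averages a bright and a dim probe. The bright probe alone gave 2.37, 1.76 and 1.38 for the first 3 materials, all called, and 0.30 for CuO PEG, while the dim one gave 0.61, 0.73 and 0.47, none called. Without PBS control replicate 1 the CuO COOH value of the gene was 0.58 (adjusted p = 0.437).

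**Figure D2:**
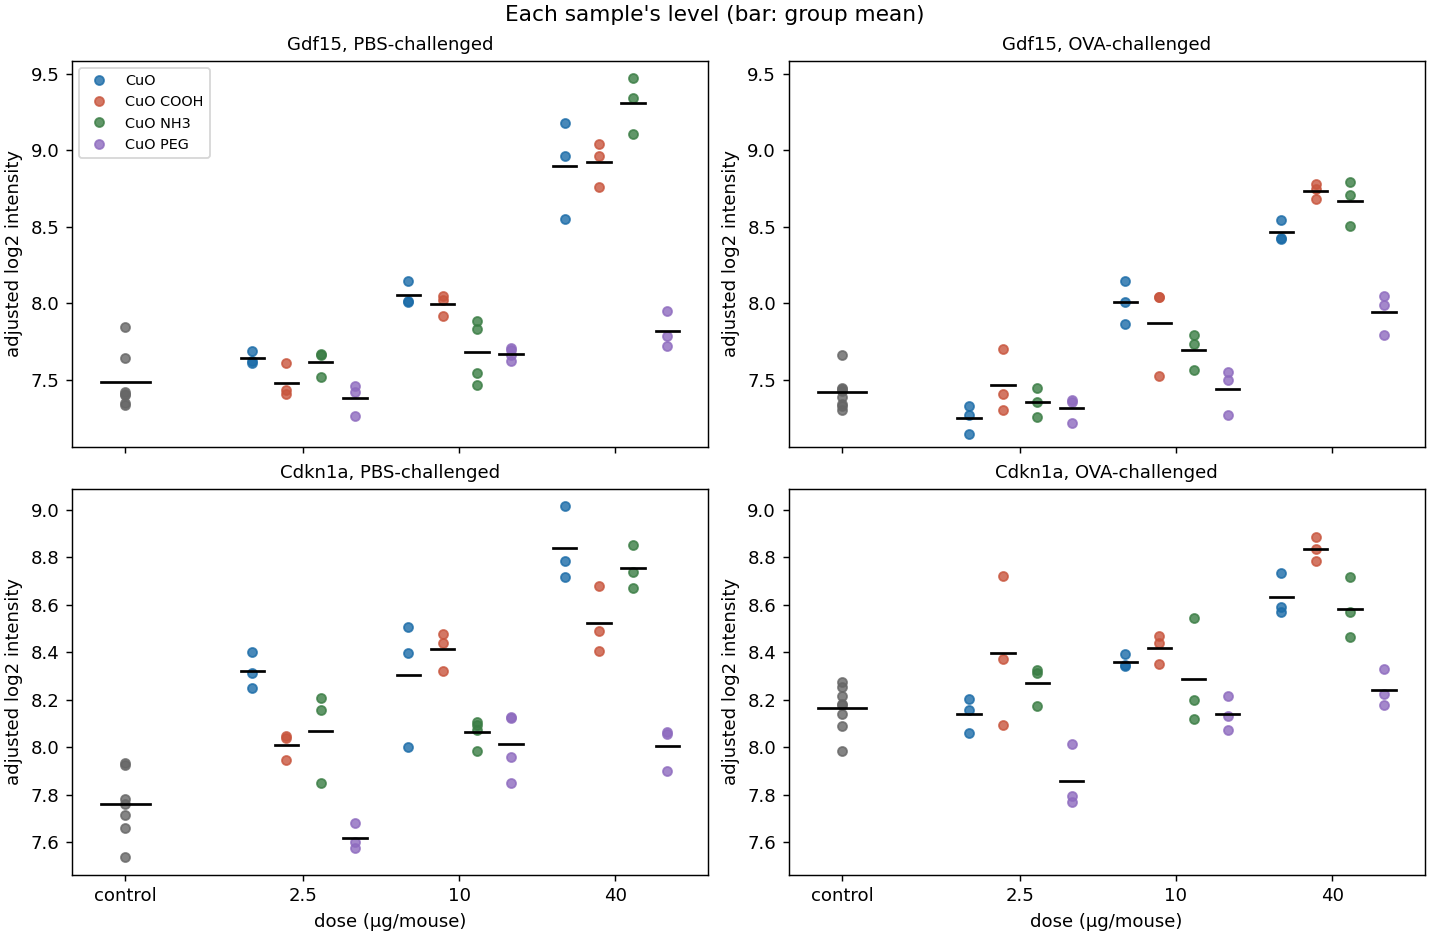
Adjusted log2 intensity of Gdf15 and Cdkn1a in every sample (points) with group means (bars), by dose in μg/mouse and challenge. In PBS-challenged mice the CuO, CuO COOH and CuO NH3 samples at 40 μg/mouse lie above all 7 controls for both genes, whereas CuO PEG samples overlap them.

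Bax, the apoptosis effector, gained less. Its levels were 10.17 to 10.59 (median 10.47) in the PBS controls and 10.97, 11.32 and 11.15 in the PBS CuO 40 samples, with no overlap. The log2 fold change was 0.99 ± 0.18 for CuO (adjusted p = 0.000378), 0.88 ± 0.17 for CuO COOH (adjusted p = 0.00122) and 0.71 ± 0.13 for CuO NH3 (adjusted p = 0.000176). Both Bax probes were called for each of the 3 materials. Ccng1 levels were 9.71 to 9.80 (median 9.73) in the controls and 10.22, 10.39 and 10.40 with CuO, again without overlap. Its log2 fold changes were 0.71 ± 0.18, 0.71 ± 0.17 and 0.64 ± 0.13 for CuO, CuO COOH and CuO NH3 (adjusted p = 0.00689, 0.00717 and 0.000554). Phlda3 ran from 12.01 through 12.17 to 12.41 in the controls and was 13.00, 12.92 and 12.88 with CuO. Its log2 fold changes were 0.79 ± 0.21, 0.78 ± 0.20 and 0.69 ± 0.15 (adjusted p = 0.00932, 0.0114 and 0.00104). With slide and position as terms the CuO COOH values were 0.59 for Bax, 0.60 for Ccng1 and 0.52 for Phlda3. The Phlda3 value was then no longer called, while the CuO and CuO NH3 values of Bax, Ccng1 and Phlda3 stayed called. For these 3 genes the 9 samples of these materials lay above every PBS control. The 3 CuO PEG samples also lay above every PBS control for Bax (10.64 to 10.86) and Ccng1 (9.88 to 10.06), though not for Phlda3 (12.25 to 12.39). Their fitted values were 0.29 (adjusted p = 0.423) for Bax and 0.18 (adjusted p = 0.693) for Ccng1, and with slide and position as terms 0.29 (adjusted p = 0.019) and 0.22 (adjusted p = 0.0769). Leaving out PBS CuO 40 replicate 2 ended the CuO calls of Bax (1.04, adjusted p = 0.11), Ccng1 (0.26, adjusted p = 0.746) and Phlda3 (1.27, adjusted p = 0.0836), and leaving out PBS control replicate 1 ended the CuO COOH calls of Bax (0.65), Ccng1 (0.91) and Phlda3 (0.47). The CuO calls of Ccng1 (0.66) and Phlda3 (0.68) were also lost without PBS control replicate 3, the CuO COOH call of Ccng1 (0.63) without PBS CuO COOH 40 replicate 1, and the CuO NH3 call of Phlda3 (0.62, adjusted p = 0.0962) without PBS CuO NH3 40 replicate 1 or PBS control replicate 5. The CuO NH3 calls of Gdf15, Cdkn1a, Bax and Ccng1 held with each sample of that comparison left out in turn.

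Trp53 itself was less stable. Its log2 fold change was 1.02 ± 0.33 for CuO COOH (adjusted p = 0.0401) and 0.65 ± 0.24 for CuO NH3 (adjusted p = 0.0475), with 0.32 ± 0.34 for CuO and 0.25 ± 0.28 for CuO PEG. Control levels ran from 7.75 through 8.38 to 8.71, and the 3 CuO COOH samples, at 8.30, 8.57 and 8.59, lay inside that range, while the 3 CuO samples, at 9.01, 8.74 and 8.74, lay above it. With slide and position as terms the value was 0.51 for CuO (adjusted p = 0.0168), 0.17 for CuO COOH and 0.44 for CuO NH3 (adjusted p = 0.0377), none past both thresholds, and without PBS control replicate 1 the CuO COOH value was 0.08 (adjusted p = 0.974). The CuO NH3 call was lost on leaving out any of 8 of the 10 samples of that comparison.

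Mdm2 was not called in any comparison of the main fits. Its log2 fold change with CuO in PBS-challenged mice was 0.55 ± 0.14, with an adjusted p of 0.00654 but a size below the threshold. All 9 samples of CuO, CuO COOH and CuO NH3 (10.05 to 10.22) lay above the 7 controls (9.76 to 9.93). Its probes disagreed. The dimmer one gave 0.68 for CuO (adjusted p = 0.0152), 0.69 for CuO COOH (adjusted p = 0.0156) and 0.47 for CuO NH3, while the brighter one gave 0.43, 0.03 and -0.10, none called. In OVA-challenged mice the gene value for CuO was 0.56 (adjusted p = 0.0374). There the dimmer probe was called for CuO (0.77, adjusted p = 0.0439) and CuO COOH (0.63, adjusted p = 0.00567), and the brighter one gave 0.35 and 0.0055. Without PBS control replicate 2 the CuO value in the PBS arm was 0.61 and called, as was the OVA arm's value without OVA control replicate 4 (0.61).

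Eda2r, Trp53inp1 and Sesn2 were likewise never called. Trp53inp1 was the only member with a negative value for all 4 materials at 40 μg/mouse in PBS-challenged mice, at -0.32, -0.25, -0.50 and -0.01 (CuO, CuO COOH, CuO NH3 and CuO PEG), of which the CuO NH3 value had an adjusted p of 0.000973 without reaching the fold threshold. Its 3 CuO NH3 samples (8.56 to 8.65) lay below all controls (8.97 to 9.25), and 1 of its 2 probes was called there (-0.63, adjusted p = 0.00219). Sesn2 had 0.57 ± 0.26 for CuO (adjusted p = 0.154) and 0.56 ± 0.18 for CuO NH3 (adjusted p = 0.025). Its call was gained without PBS control replicate 2 or 5 or PBS CuO NH3 40 replicate 1 (0.60 to 0.91). Eda2r, read near background, had 0.32, 0.45, 0.21 and 0.15 in the same order, with an adjusted p of 0.0468 for CuO COOH.

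**Figure D3:**
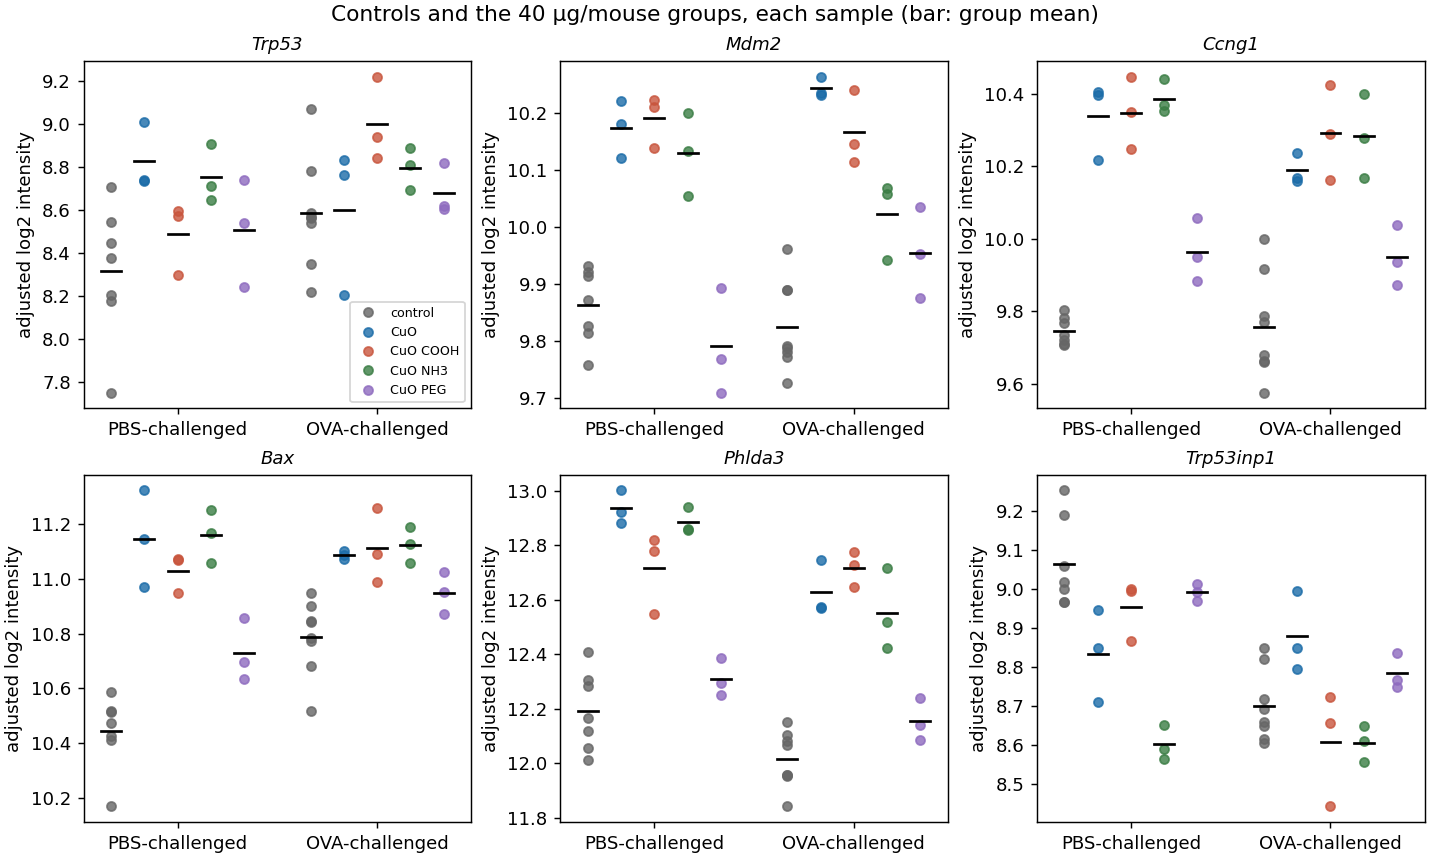
Adjusted log2 intensity of 6 members in controls and in the 40 μg/mouse groups, each point a sample and each bar a group mean, for both challenges. Ccng1, Bax and Phlda3 separate the CuO, CuO COOH and CuO NH3 samples from controls of the same challenge, Ccng1 and Bax also the CuO PEG samples of the PBS arm, Trp53 overlaps its controls in every group except PBS CuO 40, and Trp53inp1 lies lowest in the PBS arm with CuO NH3.

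At 10 μg/mouse in PBS-challenged mice the calls were Cdkn1a (0.97 ± 0.22) and Gdf15 (1.20 ± 0.28) for CuO, where 3.62% of genes were called, and Trp53 (1.40 ± 0.36), Cdkn1a (1.03 ± 0.22) and Gdf15 (1.19 ± 0.29) for CuO COOH (3.61%). CuO NH3 (3.33%) and CuO PEG (0.429%) had 0. The Trp53 levels of the 3 CuO COOH samples were 8.91, 8.44 and 8.56, 2 of them inside the control range, with a mean of 8.64 against 8.32 in the controls, a far smaller gap than the fitted value. None of these 5 calls held with every sample left out in turn. Without PBS control replicate 1 the CuO COOH values were 0.72, 0.55 and 1.03 and the CuO value of Cdkn1a 0.77, and without PBS control replicate 3 the CuO value of Gdf15 was 1.12, none called. At 2.5 μg/mouse no member was called, with 2 of 40 tests under an unadjusted limma p of 0.05 in PBS-challenged and 7 of 40 in OVA-challenged mice. For CuO, CuO COOH, CuO NH3 and CuO PEG, 2537, 1513, 2749 and 1002 of 22851 genes had such a p in the PBS arm. In the OVA arm they were 914, 1448, 3389 and 1777. The share of all genes called there was 0.906% for CuO, 0.359% for CuO COOH, 0.963% for CuO NH3 and 0% for CuO PEG in the PBS arm, and 0%, 0.035%, 0.923% and 0.00438% in the OVA arm.

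The step from 2.5 to 40 μg/mouse was tested directly. In PBS-challenged mice CuO raised Gdf15 by 1.71 ± 0.30, Cdkn1a by 0.96 ± 0.24, Ccng1 by 0.86 ± 0.20 and Bax by 0.83 ± 0.21 (4.28% of genes called). CuO NH3 raised Gdf15 by 1.65 ± 0.19, Phlda3 by 0.67 ± 0.15 and Cdkn1a by 0.62 ± 0.15 (7.19%). CuO COOH raised Gdf15 by 1.51 ± 0.32 (0.884%), and CuO PEG raised none, although 4.36% of genes were called there. In OVA-challenged mice the single call was Gdf15 with CuO NH3, at 1.18 ± 0.24 (0.696%). Hardly any gene was called in that arm with the PEG material (0.0131%) or the COOH material (0.00875%). The lack of a member call with these materials therefore does not set the members apart from other genes. Without PBS CuO 40 replicate 2 the 4 calls of CuO were lost (0.98 for Gdf15, 1.19 for Cdkn1a, 0.45 for Ccng1 and 0.88 for Bax). The CuO COOH call was lost without 1 of 2 samples (1.04 and 1.67), the OVA call without 1 of 4 samples (0.96 to 1.34), and among the CuO NH3 steps the Gdf15 call held throughout. The OVA CuO 2.5 group has 2 samples alone on their arrays, so that its fitted values rest on 1 sample. The step of core CuO in OVA-challenged mice therefore cannot decide whether a member rose.

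OVA challenge by itself called 0 of the 10 members, where 5.23% of genes were called. An unadjusted limma p under 0.05 was reached by 3 members and by 5338 of the 22851 genes. Bax had 0.34 ± 0.11 (adjusted p = 0.04), Cdkn1a 0.37 ± 0.12 (adjusted p = 0.0536) and Trp53inp1 -0.29 ± 0.09 (adjusted p = 0.0365). The bright Cdkn1a probe alone gave 0.62 (adjusted p = 0.0489).

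At 40 μg/mouse in OVA-challenged mice, Gdf15 rose with CuO (1.61 ± 0.27, adjusted p = 0.00241), CuO COOH (1.48 ± 0.19, adjusted p = 5.17e-05) and CuO NH3 (1.17 ± 0.20, adjusted p = 0.00136). Gdf15 ran from 7.30 through 7.41 to 7.66 in the 8 OVA controls and was 8.42, 8.55 and 8.42 with CuO, 8.74, 8.68 and 8.78 with CuO COOH, and 8.51, 8.71 and 8.80 with CuO NH3. The 3 CuO PEG samples (8.05, 7.79 and 7.99) also lay above all 8 OVA controls, with a fitted value of 0.44 ± 0.22 (adjusted p = 0.418). Phlda3 rose with CuO (0.88 ± 0.21, adjusted p = 0.0291) and CuO COOH (0.70 ± 0.15, adjusted p = 0.00524), and Cdkn1a with CuO COOH (0.69 ± 0.14, adjusted p = 0.00532). This made 2 members for CuO (1.62% of genes called), 3 for CuO COOH (3.82%), 1 for CuO NH3 (3.93%) and 0 for CuO PEG (0.586%). Leaving out OVA control replicate 1 ended the Phlda3 calls of both materials (0.83, adjusted p = 0.0567, and 0.52, adjusted p = 0.415) and the Cdkn1a call (0.67, adjusted p = 0.239). The Phlda3 call of CuO was lost on leaving out any of 5 samples (0.77 to 1.12), and those of CuO COOH also without OVA CuO COOH 40 replicate 1, while without OVA CuO 40 replicate 2 the Gdf15 call of CuO was lost (1.20, adjusted p = 0.146). At 10 μg/mouse no member was called in OVA-challenged mice, with 8 of 40 tests under an unadjusted limma p of 0.05. There 0.267% of genes were called for CuO, 0.665% for CuO COOH, 2.51% for CuO NH3 and 0% for CuO PEG. In the same order, 2342, 2294, 4229 and 1286 of 22851 genes had an unadjusted limma p under 0.05.

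Whether the exposure effect at 40 μg/mouse differed between the arms was tested as an interaction. None of 40 member tests was called, and 8 had an unadjusted limma p under 0.05. Among 22851 genes, 2114 had such a p for CuO, 2187 for CuO COOH, 2927 for CuO NH3 and 1117 for CuO PEG. The share of genes called was 1.12% for CuO, 1.14% for CuO COOH, 1.59% for CuO NH3 and 0% for CuO PEG. The effect on Cdkn1a in the OVA arm minus that in the PBS arm was -0.75 (95% CI -1.22 to -0.28, adjusted p = 0.152) for CuO and -0.63 (95% CI -1.05 to -0.20, adjusted p = 0.147) for CuO NH3. For Gdf15 it was -0.38 (95% CI -0.99 to 0.23) for CuO and -0.78 (95% CI -1.32 to -0.23, adjusted p = 0.167) for CuO NH3.

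Each surface modification was set against core CuO dose by dose, in 18 comparisons, with dye, slide and position as terms and p-values adjusted over all genes. In PBS-challenged mice at 40 μg/mouse, PEG on the surface went with lower Gdf15 (-1.08, 95% CI -1.41 to -0.75, adjusted p = 9.31e-06), Cdkn1a (-0.83, 95% CI -1.12 to -0.54, adjusted p = 7.37e-05) and Phlda3 (-0.63, 95% CI -0.87 to -0.38, adjusted p = 0.000288), where 4.4% of genes were called. Mdm2 (-0.38), Bax (-0.42) and Ccng1 (-0.37) had adjusted p of 0.00173, 0.00984 and 0.0162 below the fold threshold. At 2.5 μg/mouse Cdkn1a was lower with CuO PEG than with CuO by 0.70 in size (-0.70, 95% CI -1.01 to -0.39, adjusted p = 0.00345, 1.86% of genes called). The 4 calls stayed called with any 1 sample of their groups left out, but 3 were lost with array as a random block or with replicate number as a block. Gdf15 stayed called (-1.07 and -1.04), whereas Cdkn1a had -0.45 and -0.42 and Phlda3 -0.41 and -0.41 at 40 μg/mouse, and Cdkn1a at 2.5 μg/mouse had -0.18 (adjusted p = 0.476) and -0.13 (adjusted p = 0.498). Under both, Ccng1 was called instead (-0.65 each). With dye and array as terms, Phlda3 at 40 μg/mouse was no longer called (-0.82, adjusted p = 0.0761), and Mdm2 was (-0.60, adjusted p = 0.0498). No member was called between CuO COOH or CuO NH3 and CuO at any dose, which does not show that the materials act alike. The share of all genes called there was also small, 0% to 0.188% in the PBS arm and 0% to 0.385% in the OVA arm. For CuO COOH at 2.5 μg/mouse in the PBS arm, 5 of the 10 members had an unadjusted limma p under 0.05, as had 2680 of the 22851 genes. At 40 μg/mouse in the PBS arm the Gdf15 difference was 0.02 (95% CI -0.25 to 0.30) for CuO COOH and 0.41 (95% CI 0.08 to 0.74, adjusted p = 0.465) for CuO NH3, so a difference of that size was not resolved. In OVA-challenged mice 0 of 90 member tests were called and 14 had an unadjusted limma p under 0.05. Between 0% and 0.403% of all genes were called in these comparisons, and 943 to 3003 of the 22851 genes had such a p. CuO PEG minus CuO at 40 μg/mouse was -0.52 (95% CI -0.88 to -0.16, adjusted p = 0.195) for Gdf15 and -0.47 (95% CI -0.74 to -0.21, adjusted p = 0.0848) for Phlda3. CuO PEG and CuO NH3 lay on other slides than CuO, joined only through the controls. Of the materials, the paper measured the least copper in CuO PEG and the most in core CuO. At equal dose, surface and amount of copper therefore cannot be told apart.

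**Figure D4:**
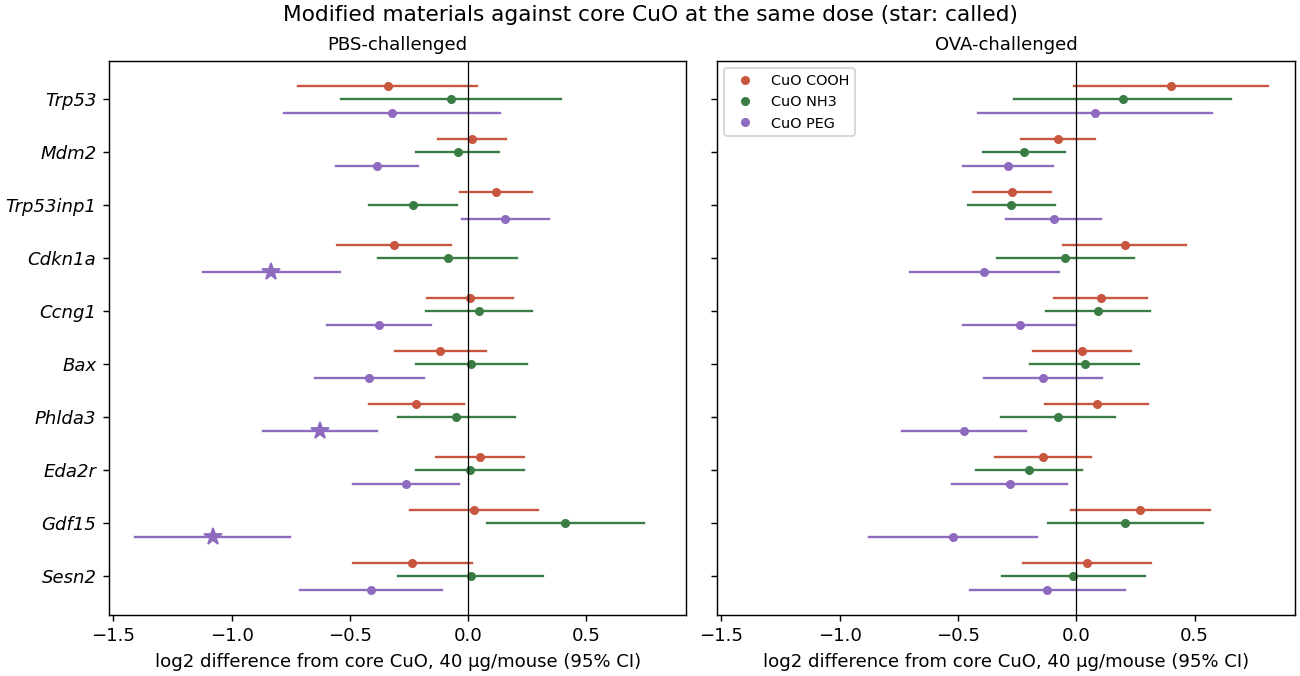
Log2 difference of each member between a modified material and core CuO at 40 μg/mouse, with 95% confidence intervals, for both challenges; stars mark called genes. The 3 stars are Cdkn1a, Phlda3 and Gdf15 with CuO PEG in PBS-challenged mice, and in both arms 9 of the 10 CuO PEG estimates lie below 0.

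Other genes of the pathway were described from lists. At 40 μg/mouse in PBS-challenged mice, genes of G2/M and mitosis rose most widely, 17 of 18 for CuO and 16 of 18 for each other material, CuO PEG included, with medians of 2.62, 2.44, 2.41 and 1.32 against a median near 0 over all genes. The share of all genes called in either direction, against which these lists and those that follow are to be read, was 14.1%, 10.3%, 13.2% and 2.24% for CuO, CuO COOH, CuO NH3 and CuO PEG. Ccna2, the S and M phase cyclin, had 3.16 for CuO and 1.85 for CuO PEG, Birc5, a mitotic survivin, 3.11 and 1.63, the proliferation marker Mki67 2.94 and 1.86, and the topoisomerase Top2a 3.05 and 1.75. Cdkn1a, whose product arrests the cycle, was raised beside them for CuO, CuO COOH and CuO NH3. The OVA controls also had 16 of these 18 genes above the PBS controls (median 1.49). Against OVA controls, 4, 15, 10 and 0 of 18 rose for CuO, CuO COOH, CuO NH3 and CuO PEG, where 1.62%, 3.82%, 3.93% and 0.586% of all genes were called.

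Of 22 damage sensors and checkpoint kinases, 9 rose for CuO, CuO COOH and CuO NH3 and 7 for CuO PEG, and none fell. Their medians, at 0.23, 0.15, 0.16 and 0.20, were small beside the fold threshold. They included the histone H2ax (1.29 for CuO), Brca1 (1.24) and the CDK1 kinase Pkmyt1 (1.00). Of 29 further p53 targets, 7 rose and 2 fell with CuO, 7 and 2 with CuO COOH, 7 and 3 with CuO NH3, and 2 and 0 with CuO PEG, with medians of 0.04, 0.04, 0.21 and 0.03. The named risers were Ckap2 (3.22 for CuO) and Psrc1 (2.82), both spindle-associated proteins, and Bid (1.16), a BH3-only apoptosis protein, whereas the repair factor Xpc fell by 0.76 with CuO, by 0.84 with CuO COOH and by 0.80 with CuO NH3. None of 12 p53 regulators and partners was called with any material.

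Of 12 integrated stress response genes, 4 rose and 1 fell for CuO. The serine synthesis enzyme Psat1 had 1.64, the transcription factors Atf3 1.52 and Cebpb 0.91, and Atf5 fell by 0.66. CuO COOH raised 2, CuO NH3 3 and CuO PEG 1, and the rises included Psat1 with every material. Of all genes, 14.1%, 10.3%, 13.2% and 2.24% were called in the same order. In the BCL2 family of 10 measured genes, the pore-forming Bak1 rose (0.60, 0.65 and 0.80 with CuO, CuO COOH and CuO NH3), while the survival factors Mcl1 and Bcl2 fell by 0.78 and 0.70 for CuO, and Mcl1 fell by 0.89 for CuO NH3. Of 6 other CDK inhibitors the one called was Cdkn1b (p27), which fell by 0.60 for CuO and by 0.65 for CuO NH3. These were the only calls in the 2 lists, with none for CuO PEG and no CDK inhibitor for CuO COOH. The share of all genes called was 14.1% for CuO, 10.3% for CuO COOH, 13.2% for CuO NH3 and 2.24% for CuO PEG.

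**Figure D5:**
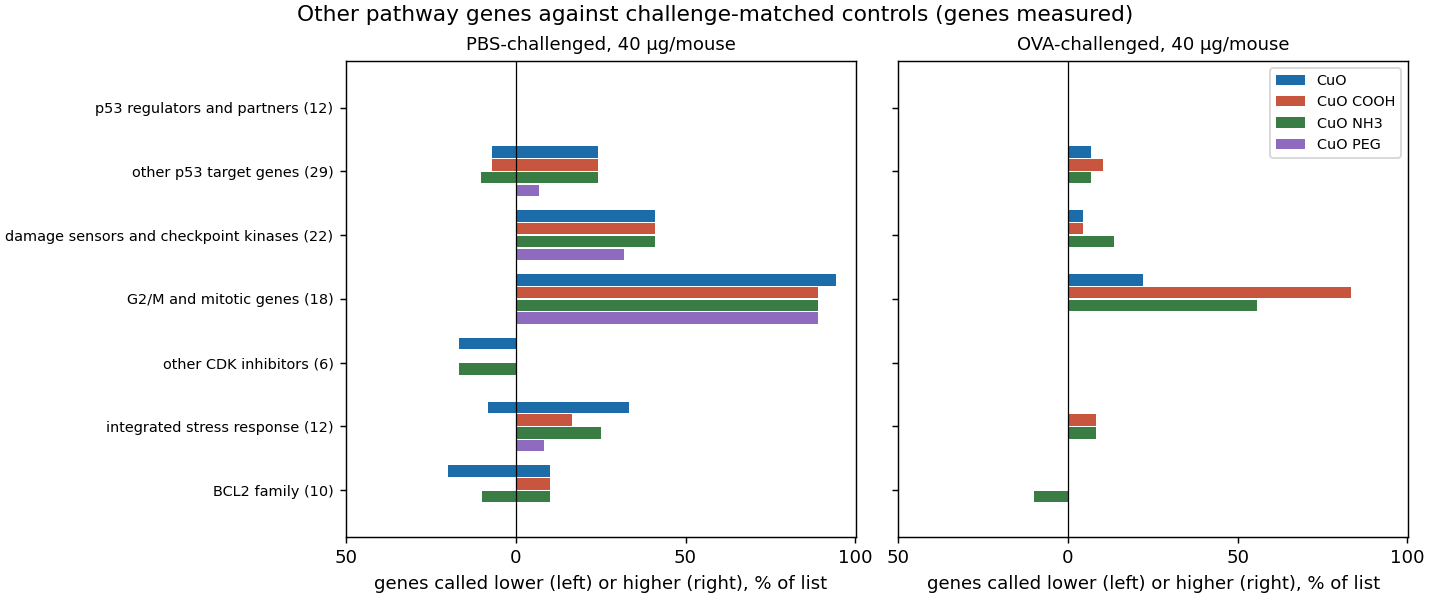
Share of each list's measured genes called lower (left of 0) or higher (right of 0) than controls of the same challenge at 40 μg/mouse, in percent, one bar a material; list sizes are in brackets. The G2/M and mitotic list has the longest bars, 16 or 17 of 18 genes for each material in PBS-challenged mice.

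Cell markers moved in the same samples, and because whole tissue was measured, fewer cells of a type and less RNA per cell cannot be told apart. Of 6 neutrophil markers, 4 were called higher and 1 lower for PBS CuO 40 (median 2.33), 3 and 1 for CuO NH3 (1.44), 1 and 0 for CuO COOH (0.46) and none for CuO PEG (0.74). The summed neutrophil level ran from 16.08 to 16.49 in PBS controls and from 16.27 to 16.50 with CuO. Of 4 erythrocyte markers in the PBS arm, 3 fell with CuO and 4 each with CuO COOH and CuO NH3, with none called for CuO PEG. Their summed level was 17.48 to 18.09 in the PBS controls and 14.83 to 15.46 with CuO. Of 5 endothelial markers, 3, 3 and 5 fell with the same materials, and their summed level was 14.39 to 14.48 with CuO against 15.14 to 15.74 in PBS controls. Club cell markers fell in 1, 2 and 3 of 3 genes, T cell markers in 3 of 6 with each of them, and B cell markers in 3 of 4 with CuO and CuO NH3. Alveolar macrophage markers were lower in 1 of 6 genes with CuO and with CuO NH3, and higher in 1 with CuO COOH. Summed eosinophil levels were 9.63 to 9.95 in the PBS controls and 8.78 to 9.10 with CuO, with 1 of 5 markers called lower. Of 5 ciliated cell markers 3 rose with CuO, and their summed level was 14.06 to 14.22 against 13.45 to 13.75 in the controls.

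In the OVA arm the erythrocyte markers fell with every material, in 3, 3, 4 and 2 of 4 genes for CuO, CuO COOH, CuO NH3 and CuO PEG. Their summed level was 17.24 to 17.95 in the OVA controls, 15.13 to 15.57 with CuO and 15.49 to 16.36 with CuO PEG. The CuO PEG samples, in which no member was called, thus also lay below every OVA control. Neutrophil markers rose in 3, 1, 4 and 1 of 6 genes, and their summed level was 15.64 to 16.02 in the controls and 16.34 to 16.91 with CuO. T cell markers fell in 2, 3, 4 and 0 of 6 genes, from 11.56 to 11.92 in the controls to 10.59 to 10.83 with CuO. Alveolar macrophage markers fell in 1, 1, 3 and 0 of 6 genes, and the summed level was 16.11 to 17.79 in the controls and 15.38 to 15.49 with CuO. For T cells and alveolar macrophages the 3 CuO samples lay below all 8 controls. Of 5 monocyte markers none was called with CuO, although their summed level was 16.20 to 16.30 there against 16.72 to 17.97 in the controls. The monocyte and alveolar macrophage lists share the gene Chil3, and a summed level adds unlogged intensities. The falls of these summed levels are therefore not separate results for each cell type. Endothelial markers fell in 0, 1, 2 and 0 of 5 genes. Ciliated cell markers had none called, with a summed level of 13.89 to 14.23 with CuO against 13.47 to 13.77 in the controls. Their part in the member results was not tested.

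Across the 26 group means, after removal of dye, slide and position, Gdf15 followed Sesn2 (Pearson r = 0.91), Phlda3 (0.90) and Ccng1 (0.88), and Cdkn1a followed Bax and Mdm2 (0.87 each). Trp53inp1 ran against Trp53 (-0.74) and Bax (-0.73). The genes most like each member over the same 26 means were Prrx1 (0.97) and Mark1 (0.96) for Gdf15, Septin5 (0.97) and Cenpt (0.96) for Cdkn1a, Ccnd1 and Krt7 (0.98 and 0.97) for Phlda3, Afg3l1 (0.98) for Bax, and Ereg (0.95) and Syt8 (0.94) for Ccng1. For the members not called, they were Pmpca and Ankrd37 (0.90 each) for Mdm2, Ttc9 and Pdlim7 (0.93 each) for Sesn2, Rspo3 (0.89) and Anxa2 (0.88) for Eda2r, and 9430083A17Rik (0.93) and Fbln1 (0.90) for Trp53inp1. Trp53 was most like Snd1 and Pfn1 (0.88 each). These group means share slides and controls, so the correlations are descriptions.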

How the data were processed

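The authors deposited scanner files with unnormalized intensity per spot (median of the foreground and of the local background), per the file headers from Agilent Feature Extraction 12.0.2.2 on 2-colour mouse arrays. The authors also deposited a table of log2 values, whose order within each sample matched the scanner intensity (Spearman rho of 1 in 89 samples), and it served as an alternative. The study's methods also name quantile normalization and ComBat, which adjusts for batches. Labels give doses in μg in one field and mg in another, and μg was used. Here log2 foreground intensity without control spots was quantile normalized over 89 samples, flagged outlier spots were left out, and spots and then probes were averaged per gene, named by transcript accession. Median intensity was 86 in Cy3 and 97 in Cy5, and 60.5% and 58.8% of spots were well above background. No spot was saturated. The number of samples limits precision.

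Genes were tested with limma 3.58.1 in R 4.3.3 over all 26 groups, with dye and array as terms against controls and dye, slide and position between materials, and Benjamini-Hochberg adjustment over 22851 genes. The code was tested on simulated data. P-values measure the spread between RNA pools. Members and lists were chosen with earlier results of these data known. Named genes were the members, up to 4 called genes per list with the largest mean change in PBS-challenged mice at 40 μg/mouse, and the 2 genes most correlated with each member. Some items that this rule names are not reported here. Alternatives were normexp with an offset of 50, loess with Aquantile, removal of dim probes, the log2 table, array as a random block, the other set of terms, a replicate block, only the same slides, single probes, and each sample left out.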

Additional observations from a re-analysis of the deposited data

Results flagged for a closer look

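Of 40 checks for a single sample far from its group, made in the 4 groups with 4 or more samples, 2 stood out, and about 1 in 20 such checks would by chance. Bax in PBS control replicate 1 was 10.17, below the other 6 PBS controls at 10.41 to 10.59. Gdf15 in OVA control replicate 5 was 7.66, above the other 7 OVA controls at 7.30 to 7.44. No member's exposure effect was called different between the arms.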

How the results depend on the processing

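None of the 23 member calls against controls at 40 μg/mouse changed direction under any alternative, whereas 24 of the 67 values there or between the control groups that were not called did under at least 1, as listed at the end. Normexp changed 1 call of 90, the log2 table and removal of dim probes 0, loess 1, the other set of terms 3, only the same slides 4 of 80, array as a random block 14 and the replicate block 16. The log2 table keeps the order of the scanner values within each sample, so it is no independent check. The main setting called 17 members in the PBS arm and 6 in the OVA arm at 40 μg/mouse. With array as a random block (correlation 0.236) they were 11 in PBS-challenged mice at 40 μg/mouse, 2 at 10 μg/mouse (main 5), 1 in OVA-challenged mice at 10 μg/mouse (main 0), 1 for the interaction (main 0), 8 for the dose step in OVA-challenged mice (main 1), and 2 and 3 between materials in the PBS and OVA arms (main 4 and 0). With the other set of fixed terms they were 1 and 1 at 10 μg/mouse, 1 for the interaction, and 5 and 7 for the dose steps (main 8 and 1). With loess the OVA dose step had 0. With the replicate block they were 14 and 4 in the OVA arm at 40 and 10 μg/mouse, 1 and 2 in the PBS and OVA arms at 2.5 μg/mouse (main 0), 8 for the OVA dose step, and 2 and 2 between materials. Deviations of same-numbered samples had a median correlation of 0.0682 (40.1% over 0.1), against -0.0296 (17.2%) otherwise. Of such pairs 38.5% against 7.1% shared a slide, so a pairing by replicate number and a shared slide cannot be told apart. The cause of these changes was not tested. Leaving out 1 sample gave 12 to 17 and 3 to 8 calls in the PBS and OVA arms at 40 μg/mouse, 1 to 6 and 0 to 1 at 10 μg/mouse, 0 at 2.5 μg/mouse, 4 to 9 and 0 to 1 for the dose steps, 0 for OVA against PBS controls and for the interaction, 4 and 0 between materials, and 118 to 151 and 24 to 62 calls of other pathway genes (main 148 and 44). The lowest member counts at 40 μg/mouse came without PBS control replicate 1, and without OVA control replicate 1 or OVA CuO COOH 40 replicate 1, which also gave the lowest count of other pathway genes in the OVA arm. That of the PBS arm came without PBS CuO 40 replicate 2, as did the lowest count for the dose step. At 10 μg/mouse the lowest came without PBS control replicate 1 or PBS CuO COOH 10 replicate 1. Near-background signal limits Eda2r.

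The log2 fold changes that changed sign, at 40 μg/mouse against controls unless the control groups are named, were not called in the main setting and lay between -0.17 and 0.48 there. With the replicate block, Trp53 had -0.10 (OVA CuO), -0.066 (OVA CuO PEG), Mdm2 0.27 (PBS CuO PEG), 0.53 (OVA CuO PEG), -0.11 (OVA against PBS controls), Ccng1 -0.066 (PBS CuO PEG), -0.068 (OVA CuO PEG), 0.011 (OVA against PBS controls), Phlda3 0.33 (PBS CuO PEG), Eda2r -0.029 (PBS CuO PEG) and Trp53inp1 0.11 (PBS CuO PEG), 0.15 (OVA CuO), 0.068 (OVA CuO NH3). With array as a random block, Trp53 had 0.11 (OVA CuO NH3), Mdm2 0.064 (PBS CuO PEG), 0.28 (OVA CuO PEG), -0.070 (OVA against PBS controls), Ccng1 0.023 (OVA against PBS controls), Phlda3 0.18 (PBS CuO PEG) and Trp53inp1 0.016 (PBS CuO PEG), 0.047 (OVA CuO). With the other set of fixed terms, Trp53 had 0.21 (OVA CuO NH3), Mdm2 0.13 (OVA CuO PEG), -0.038 (OVA against PBS controls), Ccng1 0.010 (OVA against PBS controls), Phlda3 0.12 (PBS CuO PEG) and Trp53inp1 0.18 (OVA CuO). With only the same slides, Trp53 had 0.14 (OVA CuO NH3), Mdm2 0.19 (PBS CuO PEG) and Ccng1 -0.050 (PBS CuO PEG). With loess, Gdf15 had 0.018 (OVA against PBS controls) and Trp53inp1 0.0010 (PBS CuO PEG). With normexp, Trp53 had -0.0056 (OVA CuO PEG). With the deposited table, Phlda3 had 0.0013 (PBS CuO PEG). With single probes, Mdm2 had -0.10 (PBS CuO NH3), -0.19 (OVA CuO NH3), -0.0087 (OVA against PBS controls), 0.070 (PBS CuO PEG), 0.070 (OVA CuO PEG), Eda2r -0.0033 (PBS CuO NH3), -0.10 (OVA CuO COOH) and Trp53inp1 0.15 (PBS CuO PEG). With 1 sample left out in turn, the values ranged across 0 for Trp53 from -0.26 to 0.029 (OVA CuO NH3), -0.25 to 0.30 (OVA CuO PEG), Cdkn1a from -0.016 to 0.20 (OVA CuO PEG), Mdm2 from -0.14 to 0.056 (PBS CuO PEG), -0.0034 to 0.22 (OVA CuO NH3), -0.23 to 0.21 (OVA CuO PEG), -0.030 to 0.11 (OVA against PBS controls), Phlda3 from -0.086 to 0.027 (PBS CuO PEG), Gdf15 from -0.14 to 0.21 (OVA against PBS controls), Trp53inp1 from -0.13 to 0.056 (PBS CuO PEG), -0.37 to 0.16 (OVA CuO COOH) and Sesn2 from -0.55 to 0.41 (PBS CuO COOH), -0.071 to 0.31 (OVA CuO NH3), -0.23 to 0.50 (OVA CuO PEG).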
